A study of Mus musculus with 8 samples.

Results

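Genes of meiotic cohesin, chromosome synapsis and meiotic recombination were examined in testis RNA of mice given valine and of control mice. The set held 48 genes chosen by name for these roles, all found among the 55414 Ensembl genes of the deposited expression table, 6 of them under an older symbol. They were grouped by role as cohesin (4 genes), synaptonemal complex and HORMAD proteins (11), DNA break formation (6), strand exchange and crossover (17), telomere attachment (5), and meiotic entry with checkpoint signalling (5). Testis tissue was taken in 4 control and 4 valine-treated samples. Valine is a branched-chain amino acid, and the series title ties it to apoptosis, autophagy and nucleic acid methylation. Of the animals and the treatment, the sources used here give no strain, age, dose, route or duration. They also do not say that the samples of a group are different animals. The p-values therefore reflect sample-to-sample spread alone, and this spread may be technical.

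In meiosis, spermatocytes copy their DNA once and divide in a pair of successive divisions. Cohesin rings hold sister chromatids together and form a protein axis along each chromosome. The enzyme SPO11 cuts the DNA along this axis, the recombinase DMC1 carries the broken ends to the homologous chromosome, and the synaptonemal complex joins both homologs along their length. A few of the repaired breaks mature into crossovers, while telomeres attached to the nuclear envelope move the chromosomes so that homologs can meet. Loss of many of these genes in mice stops spermatogenesis during meiotic prophase.

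Expression was given as FPKM, by its usual definition fragments divided by exon length and by the fragments of the library. Low FPKM values of genes with a single exon and a single transcript were whole multiples of 1 fragment in 99.4% to 99.6% of cases within 0.05 fragments, where evenly spread values would give 10%. These steps imply that the values were divided by 6643280 to 7675190 fragments per sample, and the groups overlapped in this number. The fragments recovered over all genes were more than this in every sample, so what the divisor counted is not known. FPKM and exon length thus gave an approximate number of fragments behind each value. That number ranged from 4 to 10 fragments per sample for Mei4 to 7410 to 10870 for Stag3. It rests on the union of exons, which was not checked for genes with several exons or transcripts. Intervals from such numbers would cover counting error only. In bulk testis RNA, fewer cells of a type and less RNA per cell cannot be told apart.

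Meiotic transcripts differed little between valine and control testes. Of 47 members with a mean of at least 1 FPKM, 1 rose (Rnf212) and 2 fell (Stag3 and Topbp1) at a limma adjusted p below 0.05. Of all 22077 tested genes, 8.73% passed, 4.32% upward and 4.41% downward, so the members' 3 calls (6.38%) lay near the background. The median log2 change of the members was -0.0026, beside 0.02 over all tested genes. The changes ran from -0.34 (Stag3) to 0.32 (Spata22). For 39 of the 47 members the 95% interval of the log2 change (limma, unadjusted) lay within 0.5 of no change in both directions. The same held for 11676 of the 22077 tested genes. On the log2(FPKM + 1) scale used, changes of low genes come out too small. The groups did not overlap for 6 members (12.8%), against 18.4% of all tested genes. After rescaling the samples to equal totals, which moved the median of all tested genes to -0.08, 7 members were lower (Mdc1, Meioc, Mlh3, Stag3, Sun1, Tex11 and Topbp1) and 0 higher. The 7 make up 14.9% of the members, and of all tested genes 9.16% were lower and 1.64% higher on that scale.

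**Figure D1:**
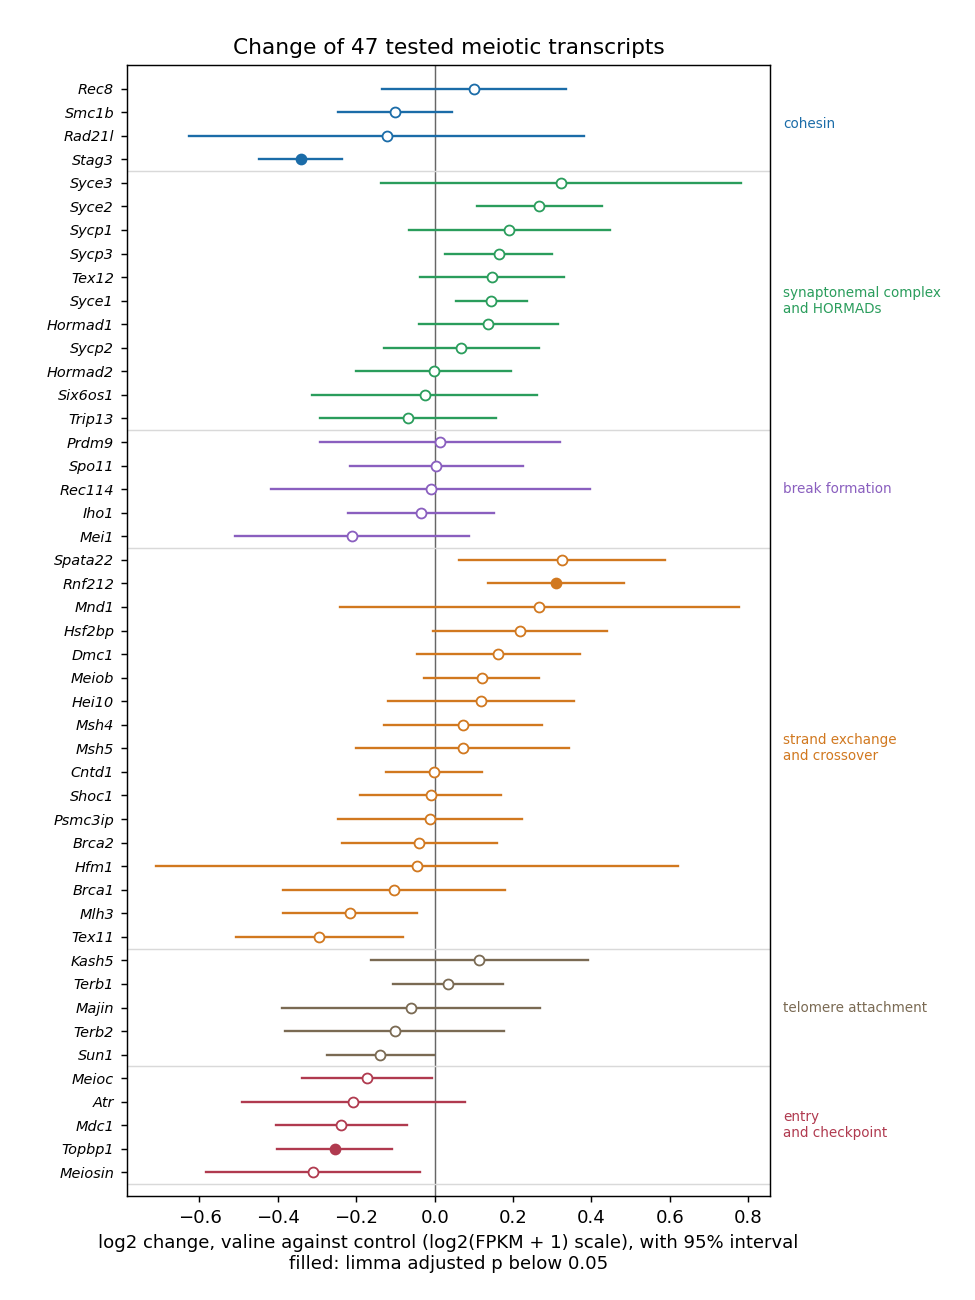
Log2 change of 47 meiotic transcripts, valine against control, on the log2(FPKM + 1) scale (x axis), by functional group (rows); points are limma estimates from 4 samples per group, bars are 95% intervals, and filled points passed an adjusted p of 0.05. The 3 filled points are Stag3 at -0.34, Rnf212 at 0.31 and Topbp1 at -0.25, and all 5 entry and checkpoint genes lie left of 0.

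Among the cohesin genes, Stag3 fell and the other 3 did not pass. Stag3 encodes the meiosis-specific STAG subunit that binds the outside of the cohesin ring. It had 226, 232, 240.0 and 253 FPKM in control replicates 1 to 4 and 195, 186, 185 and 184 FPKM in valine replicates 1 to 4. Every valine sample lay below every control sample. The mean fell from 238 ± 11.4 to 187 ± 5.0 FPKM (SD, n = 4 per group), a log2 change of -0.34 ± 0.05 (SE) with a limma adjusted p of 0.00592. Stag3 was also the most abundant member of its group. Without any 1 of the 8 samples it still passed (limma adjusted p from 0.0122 to 0.0197).

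The remaining cohesin genes encode the ring itself. Smc1b, the meiotic SMC subunit, had 141, 128, 151 and 145 FPKM in control and 141, 125, 126 and 135 FPKM in valine testes. These ranges overlapped (log2 change -0.10, limma adjusted p = 0.361). Rec8, the kleisin that closes the ring until the meiotic divisions, had 63.5 ± 7.79 and 68.0 ± 7.29 FPKM. Rad21l, a kleisin of early prophase, had the lowest level of the group, 4.58 ± 1.27 and 4.17 ± 1.45 FPKM. Its 37 to 78 fragments per sample gave a counting error of 13.9%, and its interval, from -0.63 to 0.38, was the widest of the cohesin genes.

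Ratios between cohesin transcripts within a sample do not depend on a scale factor common to all genes of that sample. They can still carry the trend on exon length described below, under which longer genes had lower changes. Exons of Stag3 cover 5733 bp, those of Smc1b 4047 bp and those of Rec8 2935 bp, and the part of length in these ratios was not tested. The FPKM of Stag3 was 4.11, 3.82, 3.26 and 3.91 times that of Rec8 in control and 2.89, 2.38, 2.81 and 3.02 times in valine testes. Against Smc1b it was 1.6, 1.81, 1.59 and 1.74 times in control and 1.38, 1.48, 1.47 and 1.36 times in valine testes. For both partners the valine ratios lay below all control ratios, and they are given with no test because the pairs were set up after the values were seen. Against Rad21l the ratios overlapped (40.3 to 67.2 in control and 31.1 to 63.1 in valine).

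Genes of the synaptonemal complex had the highest summed level of the 6 groups, 1489 to 1648 FPKM in control and 1668 to 1861 FPKM in valine testes. The FPKM of all genes together was also higher in valine samples, 1027660 to 1070520 against 944659 to 974626. None of the 11 passed in limma, while 3 had an unadjusted p below 0.05 (25.6% of all tested genes had one). Of the 11 changes 8 were positive, with a median of 0.14 on the log2 scale. The median stayed positive but was 0.03 with equal totals, 0.02 with quantile normalisation and 0.05 after removal of the trend on exon length. With limma-voom on recovered fragments it was 0.11. Syce1, which links the central element to SYCP1, had the highest level of all members. It had 534, 500.1, 508 and 539 FPKM in control and 585, 563, 571 and 582 FPKM in valine testes, with no overlap. Its log2 change was 0.14 ± 0.04 (SE; limma adjusted p = 0.0569), and -0.0004 with quantile normalisation.

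Syce2, which forms the backbone of the central element with TEX12, had the smallest p of the group. Its values were 209, 208, 196 and 209 FPKM in control and 243, 235, 230.0 and 286 FPKM in valine testes. The groups did not overlap, and valine replicate 4 was highest. The log2 change was 0.27 ± 0.07 (SE) with a limma adjusted p of 0.0515. It passed in 4 of 22 alternative limma fits. These were array weights (adjusted p = 0.0452), a filter at 5 FPKM (0.0403), without valine replicate 4 (0.0476), and limma-voom on the recovered fragments (0.0479). It did not pass in the rest, such as quantile normalisation (0.277), equal totals (0.155) and removal of the exon length trend (0.142). Its partner Tex12 had 37.8 ± 2.72 and 42.0 ± 4.09 FPKM. Syce3, another central element gene, varied widely, from 125 to 196 FPKM in control and from 142 to 273 FPKM in valine testes.

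None of the genes for the filament and the lateral elements passed. Sycp1, the transverse filament that spans the gap between homologs, had 127 ± 16.0 and 145 ± 17.3 FPKM. Sycp2 and Sycp3, which build the lateral element on the chromosome axis, had 150.0 ± 14.4 and 157 ± 14.5 FPKM and 179.7 ± 12.2 and 201 ± 9.70 FPKM. Sycp3 had an interval just above 0, from 0.03 to 0.30, without adjustment (limma adjusted p = 0.129). Of its exon bases 52.2% lie in exons of Chpt1 on the other strand, so its value is uncertain where counting ignored strand. Six6os1, a central element gene, had 10.6 ± 0.984 and 10.4 ± 1.88 FPKM.

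HORMAD proteins mark chromosome axes that are not yet synapsed, and the ATPase TRIP13 removes them. Hormad1 had 126 ± 6.28 and 139 ± 14.2 FPKM and Hormad2 17.0 ± 1.74 and 16.9 ± 1.21 FPKM. Trip13 had 9.32 ± 0.700 and 8.87 ± 1.08 FPKM. None of the 3 passed (limma adjusted p = 0.314, 0.99 and 0.716), and the groups overlapped for each.

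**Figure D2:**
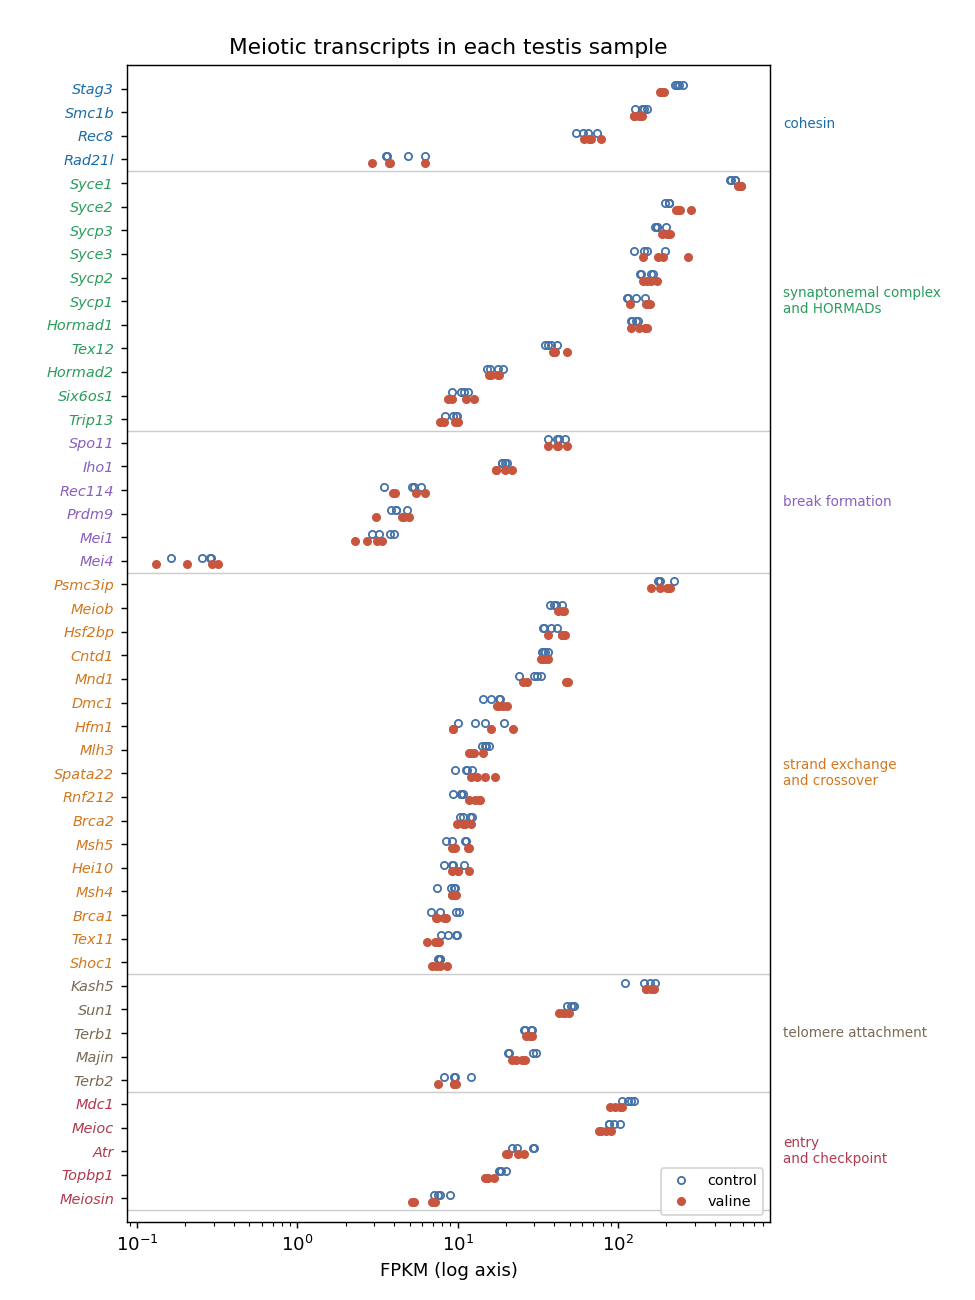
FPKM on a log axis (x axis) of all 48 meiotic transcripts (rows, by group), with 1 point for each of 4 control samples (open) and 4 valine samples (filled). Levels span Mei4, below 0.32 FPKM in every sample, to Syce1, above 500 FPKM in every sample, and most rows show overlapping groups.

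Break formation genes had low levels and showed no call, and none had an unadjusted p below 0.05 among the 5 tested. Spo11, which encodes the catalytic subunit that cuts the DNA, was the most abundant. It had 46.9, 41.6, 42.5 and 36.7 FPKM in control and 36.7, 47.7, 41.7 and 42.2 FPKM in valine testes. The groups overlapped fully, and the interval of its log2 change ran from -0.22 to 0.22. Mei1, needed for break formation, had the smallest p of the group, with 3.99, 3.79, 2.94 and 3.20 FPKM in control and 3.37, 3.13, 2.72 and 2.29 FPKM in valine testes (log2 change -0.21, limma adjusted p = 0.356).

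Iho1 anchors the break machinery to the axis through HORMAD1 and had 19.5 ± 0.756 and 19.0 ± 2.06 FPKM. Rec114, its partner in that machinery, had 4.96 ± 1.05 and 4.92 ± 1.123 FPKM, with 33 to 53 fragments per sample. In Rec114, 26.9% of exon bases lie in exons of Nptn on the opposite strand. Prdm9, the histone methyltransferase that sets the places of recombination, had 4.21 ± 0.412 and 4.30 ± 0.817 FPKM. Mei4 was below the filter on low values. It had 0.285, 0.254, 0.287 and 0.162 FPKM in control and 0.292, 0.204, 0.319 and 0.131 FPKM in valine testes, from 4 to 10 fragments per sample. The groups overlapped, and without the filter the limma adjusted p was 0.956.

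Of 17 strand exchange and crossover genes, Rnf212 rose and none fell. Rnf212 encodes a RING-family protein that stabilises recombination factors at future crossovers. It had 10.8, 10.4, 9.34 and 10.51 FPKM in control and 11.8, 13.7, 12.8 and 13.6 FPKM in valine testes, with every valine sample above every control sample. The mean rose from 10.3 ± 0.627 to 13.0 ± 0.897 FPKM, a log2 change of 0.31 ± 0.08 (SE; limma adjusted p = 0.0419). The call was lost with any 1 of the 8 samples left out, with a limma adjusted p of 0.0546 to 0.102. It was 0.153 once the trend on exon length was removed, 0.133 with equal totals, and 0.119 with limma-voom on recovered fragments. It passed in 7 of 22 alternatives. With 104 to 166 fragments per sample, the counting error of 8.52% exceeded the spread between samples of 6.11% in control and 6.92% in valine testes. Hei10, which encodes an enzyme that limits RNF212 on chromosomes, had 9.40 ± 1.13 and 10.3 ± 1.09 FPKM, and 12.4% of its exon bases are shared with the RNA gene Rpph1.

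Strand exchange begins on single-stranded DNA. Dmc1, the meiotic recombinase, had 16.7 ± 1.92 and 18.8 ± 1.18 FPKM. Meiob and Spata22 encode partners that bind single-stranded DNA. They had 40.9 ± 3.09 and 44.5 ± 1.71 FPKM, and 11.1 ± 1.08 and 14.3 ± 2.18 FPKM. Spata22 had a positive interval without adjustment (0.06 to 0.59), and 80.5% of its exon bases also belong to the overlapping gene model Gm49340, so its value is uncertain. Brca2, the loader of recombinases, and Hsf2bp, which binds BRCA2 in germ cells, had 11.3 ± 0.910 and 11.0 ± 0.95 FPKM and 37.1 ± 3.74 and 43.3 ± 4.52 FPKM. Brca1 had 8.60 ± 1.59 and 7.85 ± 0.534 FPKM.

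Psmc3ip, also called HOP2, was the most abundant gene of this group. It had 223, 177, 180.1 and 183 FPKM in control and 162, 203, 210.5 and 182 FPKM in valine testes, and the groups overlapped (log2 change -0.01, limma adjusted p = 0.957). In this gene 21.2% of exon bases lie in exons of Mlx on the opposite strand. Its partner Mnd1 had 29.8, 31.3, 24.0 and 33.0 FPKM in control and 27.0, 48.5, 47.01 and 25.7 FPKM in valine testes. Valine replicates 2 and 3 lay above all other samples, while valine replicates 1 and 4 lay within the control range.

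Crossover factors had low to moderate levels. Msh4 and Msh5, which form a clamp on recombination intermediates, had 8.93 ± 1.00 and 9.41 ± 0.279 FPKM and 10.01 ± 1.38 and 10.6 ± 1.33 FPKM. Shoc1 had 7.67 ± 0.102 and 7.62 ± 0.701 FPKM, with a spread of 1.34% between control samples. Tex11, an X-linked gene of the same pathway, had the smallest p among those that did not pass. Its values were 9.96, 9.71, 7.89 and 8.71 FPKM in control and 7.48, 6.45, 7.18 and 7.66 FPKM in valine testes. The groups did not overlap, with a log2 change of -0.29 ± 0.09 (SE; limma adjusted p = 0.0896). Mlh3, an endonuclease subunit that resolves crossovers, had 14.9 ± 0.574 and 12.7 ± 1.13 FPKM (log2 change -0.22, limma adjusted p = 0.114).

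Hfm1, a helicase of crossover formation, varied widely. It had 10.1, 12.8, 14.7 and 19.4 FPKM in control and 16.2, 22.2, 9.39 and 9.38 FPKM in valine testes. Its spread of 27.6% in control and 43.3% in valine testes was far above its counting error of 3.83%. The interval of its change, from -0.71 to 0.62, was the widest of all members. Cntd1, a cyclin-like crossover factor, had 34.8 ± 1.18 and 34.7 ± 1.58 FPKM and an interval from -0.12 to 0.12. However, 72.1% of its exon bases lie in exons of Becn1 and Coa3 on the opposite strand.

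Telomere attachment genes showed no call, and 1 of the 5 (Sun1) had an unadjusted p below 0.05. Kash5, the outer membrane protein that links telomeres to dynein, was the most abundant. It had 169.5, 111, 159 and 145 FPKM in control and 149, 167, 160.2 and 149 FPKM in valine testes, and control replicate 2 was lowest. Its log2 change was 0.11 (limma adjusted p = 0.605). Sun1, its inner membrane partner, had 52.9, 47.9, 52.2 and 50.7 FPKM in control and 46.8, 45.3, 43.0 and 49.7 FPKM in valine testes. Valine replicate 4 lay above control replicate 2, and the other samples were apart (log2 change -0.14 ± 0.06 SE, limma adjusted p = 0.19). Terb1, Terb2 and Majin encode the complex that ties telomeres to the membrane. They had 27.5 ± 1.66 and 28.1 ± 1.15, 9.86 ± 1.59 and 9.08 ± 1.01, and 25.5 ± 5.55 and 24.0 ± 1.91 FPKM.

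All 5 entry and checkpoint genes had negative changes, and 1 of them fell. Their median was -0.24 on the log2 scale, between -0.13 and -0.35 with equal totals, quantile normalisation, removal of the length trend or limma-voom. Topbp1, which activates the kinase ATR on unsynapsed chromosomes, had 18.2, 18.6, 18.4 and 20.1 FPKM in control and 16.9, 15.5, 14.9 and 15.2 FPKM in valine testes. The groups did not overlap. The mean fell from 18.8 ± 0.849 to 15.6 ± 0.890 FPKM, a log2 change of -0.25 ± 0.06 (SE; limma adjusted p = 0.0455). Without any 1 of the 8 samples the call was lost (limma adjusted p from 0.0567 to 0.10), and so it was with the length trend removed (0.30). With equal totals and with limma-voom on recovered fragments it passed (0.0117 and 0.0101).

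Mdc1, which spreads ATR signalling over the sex chromosomes, was the most abundant gene of this group. It had 119.8, 106, 126 and 115 FPKM in control and 89.4, 104, 106 and 95.9 FPKM in valine testes. Control replicate 2 and valine replicate 3 met at 106 FPKM, and the remaining samples were apart. Its log2 change was -0.24 ± 0.07 (SE; limma adjusted p = 0.0811). It passed in 3 of 22 alternatives, namely equal totals, quantile normalisation and limma-voom. With the length trend removed its limma adjusted p was 0.288. Atr had 26.2 ± 4.15 and 22.5 ± 2.67 FPKM. The ratio of Topbp1 to Atr overlapped between groups, with 0.620 to 0.842 in control and 0.590 to 0.752 in valine testes.

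Meiosin and Meioc act at the start of meiosis. Meiosin, the partner of STRA8 in switching on meiotic genes, had 7.85 ± 0.753 and 6.17 ± 1.03 FPKM (log2 change -0.31, limma adjusted p = 0.146). Meioc, which works with YTHDC2 on RNA, had 92.9 ± 7.01 and 82.3 ± 6.26 FPKM (log2 change -0.17, limma adjusted p = 0.182). Neither passed, and Meioc was lower with equal totals (limma adjusted p = 0.03).

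**Figure D3:**
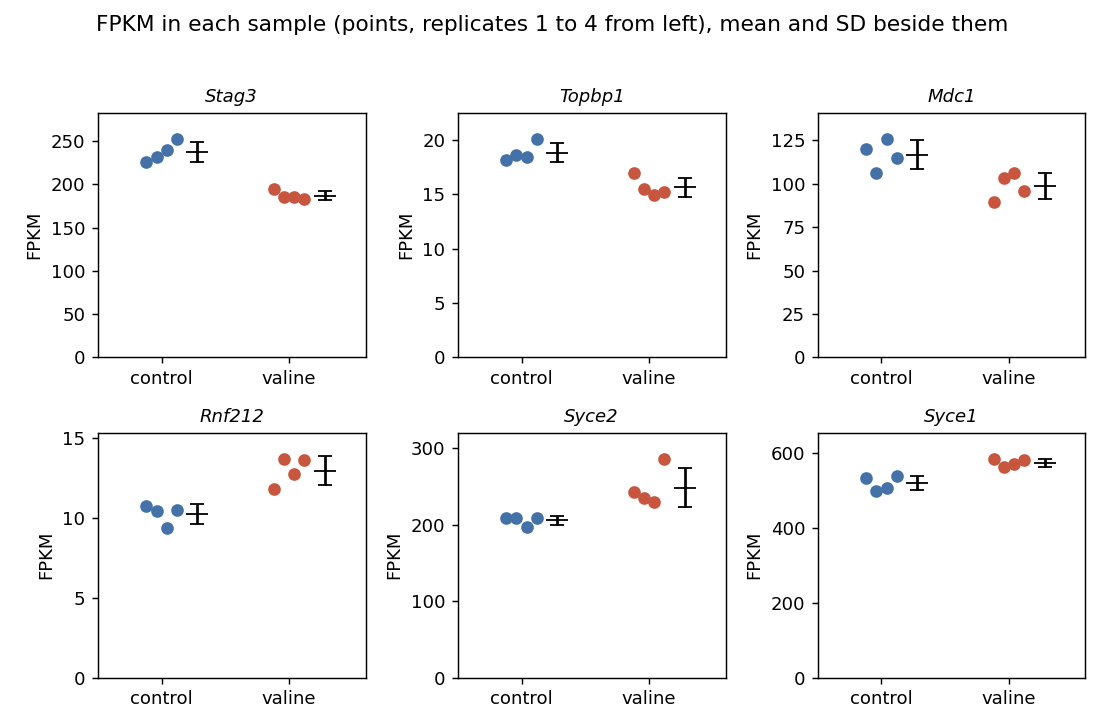
FPKM (y axis, from 0) of 6 meiotic transcripts in each of 4 control and 4 valine samples (points), with the mean and SD to the right of each group. Stag3, Topbp1 and Rnf212 passed the test and show no overlap; Syce1 and Syce2 do not overlap either but had adjusted p values of 0.0569 and 0.0515, and Mdc1 groups meet at 106 FPKM.

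Promoter sequence of the genes that passed is shown so that they can be compared, taken from RefSeq promoters of GRCm38.p6. The 250 bases before the annotated start were searched on both strands for 4 motifs. These were CACGTG (the E-box bound by MAX and USF factors), GGCGGGAA (E2F type), AACNGNC (MYB type) and CNCCTCAG (STRA8-MEIOSIN type). Each of the 3 promoters held 1 match, and no motif was common to them. The E-box of Stag3 began 170 bases before the start, the E2F-type match of Rnf212 88 bases and the MYB-type match of Topbp1 121 bases before it. From these longer sequences, bases inside the GENCODE gene model were left out, which removes the Stag3 window apart from its E-box site, given further on, and shortens that of Topbp1 to 138 bases. The Rnf212 sequence lies at chr5:108775028-108775277 (minus strand) and that of Topbp1 at chr9:103305077-103305214 (plus strand), both written in the direction of transcription with the match in capitals.
Rnf212: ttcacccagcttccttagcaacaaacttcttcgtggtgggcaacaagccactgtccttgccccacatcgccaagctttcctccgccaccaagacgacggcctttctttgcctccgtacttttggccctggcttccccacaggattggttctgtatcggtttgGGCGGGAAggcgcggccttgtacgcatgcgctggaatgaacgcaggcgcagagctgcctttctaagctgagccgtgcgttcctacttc
Topbp1: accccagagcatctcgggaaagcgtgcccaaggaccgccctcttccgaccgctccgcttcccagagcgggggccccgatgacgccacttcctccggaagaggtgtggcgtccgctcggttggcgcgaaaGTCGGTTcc

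The 250 bases held 26 CG dinucleotides for Stag3, 16 for Rnf212 and 33 for Topbp1. These matches are letters in a window and not measured binding.

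Promoter sequences were found for 42 of the 48 members, and 1 promoter a gene was searched. The E-box was in 9 of the 42 (21.4%), against 7.60% of 13258 promoters of tested genes and 6.05% of all 27025 promoters. The E2F-type motif was in 6 (14.3%), against 2.99% and 1.88%. The MYB-type motif was in 14 (33.3%, against 29.2% and 27.6%) and the STRA8-MEIOSIN type in 4 (9.52%, against 7.22% and 6.39%). The members had a median of 13.5 CG dinucleotides in the 250 bases, beside 13 in tested genes and 6 in all promoters. These shares are descriptions without a test. Members with an E-box included genes of different groups, such as Sycp1 and Sycp3 of the synaptonemal complex, Rec114 of break formation and Meiosin of meiotic entry.

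To show how the E-box sites compare, each is printed with 10 bases on both sides and the match in capitals, in GRCm38.p6, 5′ to 3′ in the direction of transcription. Hormad1 and Sycp3 held a pair of sites each. The start is that of RefSeq: the windows of Rec114, Six6os1 and Stag3 lie inside the GENCODE model of the gene, as do 20 of the 26 bases for Cntd1. Of the genes listed, Stag3 passed the test and the others did not.
Cntd1, 187 bases before the start, chr11:101279006-101279031: agctgtagtcCACGTGgagttttctg
Hormad1, 20 bases before the start, chr3:95559647-95559672: gcgcactgcgCACGTGctgaccggag
Hormad1, 57 bases before the start, chr3:95559610-95559635: aagggtgcgcCACGTGccagtgacag
Meiosin, 171 bases before the start, chr7:19118500-19118525: ggagcgggagCACGTGtcggagctgt
Rec114, 19 bases before the start, chr9:58741563-58741588: cgtcagctatCACGTGgaggcgggct
Six6os1, 171 bases before the start, chr12:72917921-72917946: tgtggcctacCACGTGgtgcgcgggg
Stag3, 170 bases before the start, chr5:138280329-138280354: cgctggagccCACGTGacaggactgc
Sycp1, 94 bases before the start, chr3:102936179-102936204: gagaacccggCACGTGggaagggaaa
Sycp3, 43 bases before the start, chr10:88459534-88459559: gggcatggagCACGTGctaggaggcg
Sycp3, 64 bases before the start, chr10:88459513-88459538: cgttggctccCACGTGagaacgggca
Tex12, 93 bases before the start, chr9:50561346-50561371: gcgagactgtCACGTGgctcgcgcgc

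The E2F-type sites are shown in the same way, as written or as the reverse complement. Among these genes Rnf212 passed the test and the others did not. The Mdc1 window ends at the start site and is shorter, and that of Msh5 lies inside the GENCODE model of the gene.
Hormad1, 96 bases before the start, chr3:95559571-95559598: cgcagcttttGGCGGGAAtagtggtctg
Mdc1, 15 bases before the start, chr17:35841473-35841497: ttcagcctgtTTCCCGCCggtagcc
Meiosin, 71 bases before the start, chr7:19118398-19118425: ggcaccgcgtGGCGGGAAcgtggagggg
Msh5, 66 bases before the start, chr17:35046671-35046698: tgacggaaaaGGCGGGAAagtgctgcga
Rnf212, 88 bases before the start, chr5:108775098-108775125: tatcggtttgGGCGGGAAggcgcggcct
Tex12, 146 bases before the start, chr9:50561397-50561424: ggaggaaaaaGGCGGGAAgtaaagggaa

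Tex12, Hormad1 and Meiosin held both an E-box and an E2F-type match. Their log2 changes were 0.15, 0.14 and -0.31, and none of the 3 passed. Any link between these motifs and the changes was not tested.

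Transcript levels of proteins that act in pairs were far apart in some pairs and near each other in others. Within a sample the FPKM of Syce2 was 5.03 to 5.91 times that of Tex12 in control and 5.66 to 6.09 times in valine testes. Syce1 was 45.7 to 58.0 and 44.4 to 67.5 times Six6os1. Rec8 and Rad21l are both kleisins and not partners in this sense, and Rec8 was 10.3 to 20.6 and 10.8 to 22.4 times Rad21l. Psmc3ip was 5.54 to 7.497 and 4.19 to 7.09 times Mnd1, and Meiob 3.28 to 4.67 and 2.68 to 3.75 times Spata22. Msh4 and Msh5 lay closest to 1, with 0.806 to 1.08 in control and 0.779 to 1.00 in valine testes. Rnf212 over Hei10 was also near 1 (0.855 to 1.28 in control and 1.08 to 1.48 in valine). So were Terb1 over Majin (0.872 to 1.39 and 1.10 to 1.22) and Sycp2 over Sycp3 (0.783 to 0.935 and 0.675 to 0.858). The groups were apart for 2 of the 15 ratios computed, both with Stag3 on top.

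**Figure D4:**
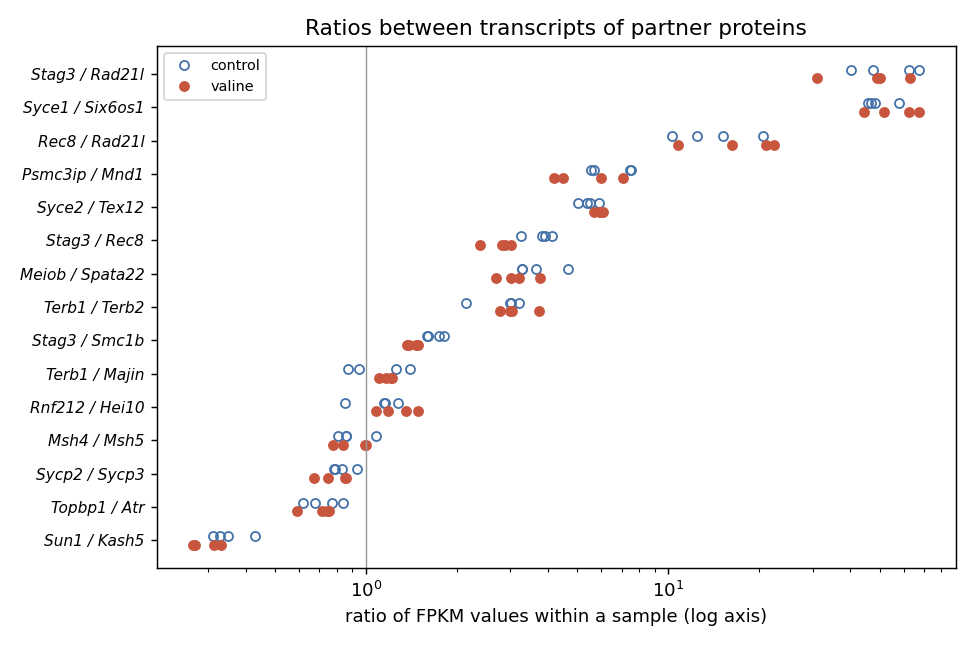
Ratios of FPKM between transcripts of partner proteins, and of the kleisins Rec8 and Rad21l, within each sample (x axis, log scale). The 15 pairs are in rows, with open points for 4 control and filled points for 4 valine samples. Control and valine points separate for Stag3 over Rec8 and Stag3 over Smc1b and overlap for the other 13 pairs.

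The change of a member followed its exon length, as it did among all genes. Of 15 tested members with exons under 2000 bp in all, 11 had a positive change, with a median of 0.14 on the log2 scale, and the median of 9063 tested genes in that range was also 0.14. Of 14 members of 5000 bp or more, 11 had a negative change, with a median of -0.07, beside -0.09 for 5501 genes. From 2000 bp to under 5000 bp, 18 members had a median of -0.0020 and 7124 genes one of 0.02. Across the 47 members exon length and log2 change had a Spearman's rho of -0.64, and across 21688 tested genes -0.34. These are descriptions across genes measured in the same 8 libraries, and genes are not independent replicates.

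Exon length differed between the groups of members. The median was 1968 bp for the synaptonemal complex and HORMAD genes and 7421 bp for entry and checkpoint genes, and 2596 bp for all tested genes. Stag3, at 5733 bp, changed by -0.27 on the log2 scale after the length trend was removed and passed (limma adjusted p = 0.0209). No other member passed after that removal, and the part of exon length in the other values was not tested further.

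**Figure D5:**
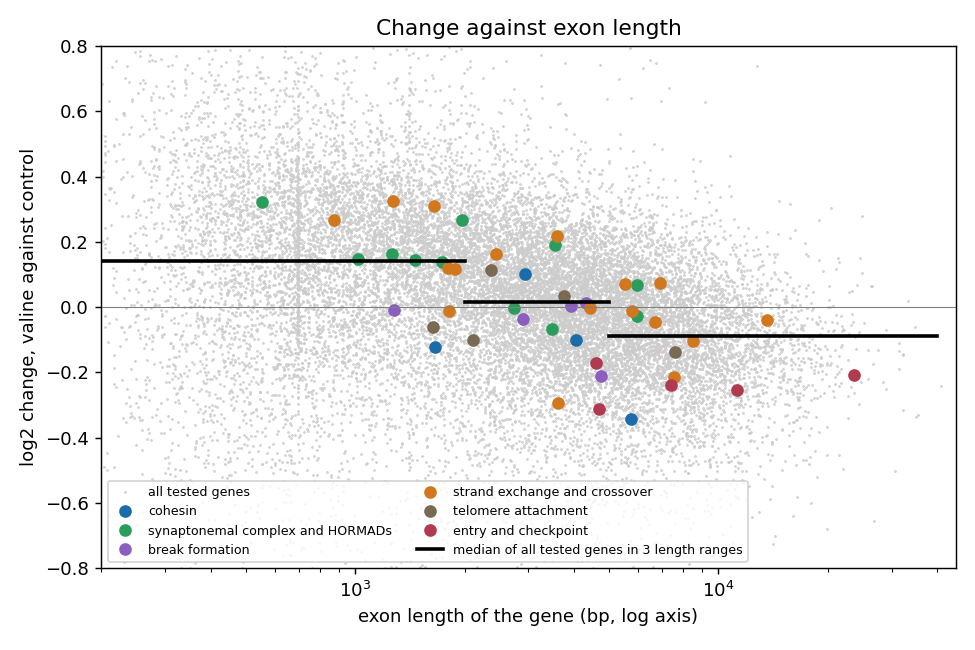
Log2 change, valine against control (y axis), against exon length (x axis, log scale) for 47 meiotic transcripts by group (coloured points) and for all tested genes with a length (grey; genes beyond 0.8 in either direction or under 200 bp are outside the axes). Black lines are the medians of all tested genes under 2000 bp (0.14), from 2000 to under 5000 bp (0.02) and of 5000 bp or more (-0.09), and members lie around them.

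Of 104 further meiosis genes found, 2 rose and 2 fell (3.85%, beside 8.73% of all tested genes), with a median log2 change of -0.06. With equal totals 16 were lower (15.4%, beside 9.16% of all tested genes) and 0 higher (beside 1.64%). In 15 general and accessory cohesin genes Smc1a, the SMC subunit of all dividing cells, fell from 4.37 ± 0.549 to 2.94 ± 0.298 FPKM (limma adjusted p = 0.043). Among 12 entry genes and regulators Kctd19 fell from 387 ± 12.8 to 331 ± 13.1 FPKM (limma adjusted p = 0.0204). Tcfl5, a transcription factor of pachytene cells, rose from 227 ± 9.81 to 256 ± 5.11 FPKM (limma adjusted p = 0.0445, and 0.376 with equal totals). In 16 crossover genes the nuclease gene Mus81 rose from 25.9 ± 1.43 to 31.6 ± 1.17 FPKM (limma adjusted p = 0.025, and 0.0966 with equal totals). With 1 sample left out, Smc1a and Tcfl5 each missed the threshold in 7 of 8 cases and Mus81 in 6 of 8, with limma adjusted p values up to 0.108, 0.112 and 0.0753. Kctd19 missed it without control replicate 1 (0.0652) and without valine replicate 1 (0.0616). With the exon length trend removed, Smc1a and Tcfl5 did not pass (limma adjusted p = 0.0792 and 0.0701), while Kctd19 and Mus81 did (0.0208 and 0.031).

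No call was made in the other 4 lists, of which the genes with the smallest p are given. Among 28 resection and strand exchange genes Nbn had 25.4 ± 1.83 and 30.3 ± 2.78 FPKM (limma adjusted p = 0.0985). Among 8 telomere genes Dynlrb2, a dynein subunit, had 197 ± 25.5 and 251 ± 14.2 FPKM (limma adjusted p = 0.0519). Among 18 checkpoint and sex body genes Chek1 had 6.42 ± 0.304 and 8.21 ± 1.0 FPKM (limma adjusted p = 0.0855), and among 7 break and hotspot genes Hells had 14.2 ± 1.5 and 12.4 ± 0.327 FPKM (limma adjusted p = 0.197). At an unadjusted p below 0.05 these 4 lists had 3, 2, 3 and 0 genes, beside 25.6% of all tested genes.

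Markers of other cells moved in the same samples. All 10 Leydig cell genes fell, with a summed level of 1660 to 2336 FPKM in control and 524 to 813 FPKM in valine testes. Of 13 elongating spermatid genes 10 rose, with summed levels of 49279 to 51286 and 61953 to 74657 FPKM. In 13 round spermatid genes 3 rose and 0 fell, with summed levels of 2239 to 2524 and 2567 to 2782 FPKM. As given above, the FPKM of all genes together was also higher in valine samples. Of 16 spermatocyte genes outside the set 4 rose (Nxt1, Ldhc, Ccna1 and Tcfl5, which is also among the 104 meiosis genes), with summed levels of 9071 to 9479 and 9980 to 10891 FPKM. Ldhc alone had means of 4428 and 5238 FPKM. Of the 16 changes 11 were positive and 5 negative, with a median of 0.06 on the log2 scale. The summed level of the 48 meiotic genes was 2925 to 3175 FPKM in control and 3066 to 3275 FPKM in valine testes, and these ranges overlapped. Of 13 spermatogonial genes 11 were tested and 2 fell, Kit and Zbtb16. However, 6 of the 11 changes were positive, with a median of 0.08 on the log2 scale. The summed levels of the 13 were 118 to 137 FPKM in control and 134 to 143 FPKM in valine testes, and these overlapped. In 12 Sertoli genes 1 rose and none fell (8.33%, beside 8.73% of all tested genes called in either direction). Of these 12 changes 6 were positive and 6 negative. Of 9 macrophage genes 8 were tested and 4 fell, and of 8 peritubular myoid genes 3 and of 6 tested endothelial genes 4 fell. None of 5 red blood cell genes passed, also at an unadjusted p, and 8 of 9 epididymis genes were below the filter, with a summed level of at most 7.60 FPKM. The part of these cells in the changes of Stag3, Topbp1 and Rnf212 was not tested.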

How the data were processed

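RNA of mouse testis (Trizol extraction, Illumina TruSeq libraries, per the labels' protocols) was measured in 4 control and 4 valine samples. The authors deposited FPKM values for 55414 genes. The aligner HISAT2 and the build GRCm39 are named, without further detail, per the submitters' processing notes; for the quantifier, strand setting and annotation release, nothing is stated (not given in the sources used here). Columns were assigned by the group's name (control) or abbreviation (VA, matched to the valine titles) and replicate number, with 0 sample columns unused. No pair of samples held identical values.

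Symbols came from GENCODE vM21 by Ensembl identifier (52081 genes named), as did exon length (union of exons) and GC content; that annotation is of an older assembly, and promoters are from RefSeq GRCm38.p6. Values were analysed as log2(FPKM + 1), a scale on which changes of low genes come out too small. Genes averaging 1 FPKM or more over the 8 samples (22077) were fitted with limma 3.58.1 in R 4.3.3 (treatment as the only term, mean-variance trend, two-sided, Benjamini-Hochberg adjustment at 0.05 over all tested genes). Approximate fragments were FPKM multiplied by exon length and by the fragments that whole-fragment steps imply. Summed over genes these came to 16741200 to 19821100 per sample, above the implied divisor. The steps were checked only on genes with a single exon and a single transcript. For other genes the lengths behind the deposited values are not known, so this sum does not settle what the divisor counted. The fit was tested on simulated data.

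The members and all lists were chosen with earlier results of these data known. All members are named; values in every sample are given for those past the threshold and, in each group, for the most abundant gene and the gene with the smallest p among the rest. Hfm1 and Mnd1 were added for their spread after the values were seen. Of the other meiosis genes, each list's genes past the threshold (up to 2), or the gene with the smallest p, are named; 104 of 106 were found. The labels give no batch. The 22 alternatives are given in the closing section.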

Additional observations from a re-analysis of the deposited data

Results flagged for a closer look

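In each group of 4 samples the gap between an extreme sample and its neighbour was compared with the range of the group. Of 96 groups (48 members in control and in valine), 5 had a gap above Dixon's 95% critical value, which chance gives in about 1 in 20 groups. Sycp3 had 197.8 FPKM in control replicate 4, against 175.3 FPKM in the next sample. Syce2 had 196.4 FPKM in control replicate 3, against 208.2 FPKM. Tex12 had 48.1 FPKM in valine replicate 4, against 40.6 FPKM, and Psmc3ip had 223.2 FPKM in control replicate 1, against 182.8 FPKM. Terb2 had 7.58 FPKM in valine replicate 3, against 9.47 FPKM. Control replicates 1, 3 and 4 and valine replicates 3 and 4 each held 1 of the 5 values.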

How the results depend on the processing

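All 22 alternatives used limma and were set against 1 member higher and 2 lower, 2 other meiosis genes higher and 2 lower, and 954 genes higher and 974 lower of all tested. No called member changed sign. Stag3 passed in 21 of 22 alternatives, with an adjusted p of 0.0742 in the exception (replicate block with the exon length trend removed), and Rnf212 and Topbp1 in 7 each. For members (higher and lower), other meiosis genes (higher and lower) and all genes (higher and lower) in turn, the counts that moved were as follows. No expression filter gave 0 and 1 members, 1 and 1 others, and 568 higher of all. A filter at a mean of 5 FPKM gave 3 members higher and 1 other gene lower. Equal totals gave 0 and 7 members, 0 and 16 others, and 363 and 2022 of all, and 8 uncalled members changed sign. Equal medians gave 1 member lower and 1 other higher. Quantile normalisation gave 4 members lower, 1 and 5 others, and 398 higher of all. Moderation without the trend gave 0 and 1 members, 1 and 1 others, and 503 higher of all. Array weights gave 2 and 1 members. Removal of the exon length trend gave 0 and 1 members, 1 and 1 others, and 488 higher of all. The limma-voom fit on recovered fragments, chosen after seeing the data, gave 4 members lower, 8 others lower and 1559 lower of all. Leaving out 1 sample gave 0 to 1 members higher and 1 lower, 0 to 3 others higher and 0 to 2 lower, and 381 to 795 of all higher and 461 to 802 lower. Uncalled members changed sign in other alternatives too. They numbered 5 with quantile normalisation, 6 with the exon length trend removed, 4 each with array weights and GC content trend removed, and 3 to 7 with 1 sample left out. The causes were not tested.

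Deviations of same-numbered control and valine samples correlated at -0.02, -0.04, 0.10 and 0.11, so the numbers were not taken as pairs, and 1 of 4 numbers matched its own best. The replicate block gave 0 and 1 members, 0 and 1 others, and 581 and 489 of all. The replicate block with the exon length trend removed gave 0 and 0 members, 0 and 1 others, and 138 and 304 of all. Depth limits Mei4, Rad21l and Rec114 most, whose counting errors were 37.5%, 13.9% and 14.9%.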

Other observations

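Hfm1 and Mnd1 each split the valine samples, but not in the same way. Hfm1 was above 16 FPKM in valine replicates 1 and 2 and below 9.40 FPKM in replicates 3 and 4, while Mnd1 was above 47 FPKM in replicates 2 and 3 and below 27.1 FPKM in replicates 1 and 4. Their counting errors were 3.83% and 6.90%. Shoc1, of the same functional group, varied by 1.34% between control samples, below its counting error of 5.61%.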
